A study of Homo sapiens with 3 samples.

Results

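The genes described here are the microRNA (miRNA) genes of the human genome, each set against the nearest summit of MYC binding in U2OS cells. They are all RefSeq genes of biotype miRNA on chromosomes 1 to 22 and X, 1911 of 59098 genes of all classes. A miRNA gene was called near a summit where the summit lay within 1000 bp of the annotated hairpin, and at a distance of 0 where it lay inside. A miRNA gene was called intragenic where its whole span lay inside a gene of another class, which is then its host. This gave 1531 intragenic and 380 intergenic miRNA genes, and 15 of the intergenic genes overlapped another gene in part. U2OS is an osteosarcoma cell line, and the cells were the parental line with no treatment named in the labels. The study made 2 libraries of chromatin precipitated with an antibody against MYC and 1 library of input chromatin, and both kinds contained chromatin of mouse NIH3T3 fibroblasts, added at 10% of cells as a reference for scaling. The values come from 1 list of 9818 peaks that the authors deposited, so there is no value per library, the sequencing depth is unknown, and values come without replicate error. The fold enrichment of immunoprecipitate over control and the −log10 q-value of each peak are the authors' own, and the intervals given beside shares are 95% Wilson intervals, which cover counting error only.

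MicroRNAs are short RNAs that guide Argonaute proteins to messenger RNAs, mainly by pairing of the seed near their 5′ end. They are cut from hairpins in longer transcripts, by DROSHA with DGCR8 in the nucleus and by DICER1 in the cytoplasm, and those transcripts start either at the promoter of a host gene or at a promoter of their own, which may lie far from the hairpin. MYC is a transcription factor that binds DNA with MAX, with a preference for the E-box CACGTG, and it is known both to activate miRNA genes such as the miR-17-92 cluster and to repress others such as let-7 members.

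The mature miRNAs that carry the comparisons below are shown first, from RefSeq on GRCh38.p14, 5′ to 3′, with the seed (bases 2 to 8) in capitals. Pairs with 1 seed show where a miRNA gene near a summit and a relative away from summits make RNAs that share their seed. The let-7i gene was the 1 gene near a summit among the 14 that carry the seed GAGGUAG, and let-7a, from genes at 9388 bp or more, is its relative.
let-7i-5p: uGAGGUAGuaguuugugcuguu
let-7a-5p: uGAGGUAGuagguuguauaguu
The genes of miR-132 and miR-212 are the 2 genes with their seed, and both lay near 1 summit.
miR-132-3p: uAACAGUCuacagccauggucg
miR-212-3p: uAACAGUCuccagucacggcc
MIR92B was the 1 near gene of 7 with the seed AUUGCAC, whereas the genes of miR-92a and miR-25 were not near a summit.
miR-92b-3p: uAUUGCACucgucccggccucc
miR-92a-3p: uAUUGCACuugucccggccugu
miR-25-3p: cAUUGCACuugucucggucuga
None of the 8 genes with the seed AAAGUGC, which include the miR-17 and miR-106b genes, was near a summit.
miR-17-5p: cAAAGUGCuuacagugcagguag
miR-106b-5p: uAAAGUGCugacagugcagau
MIR301B lay near a summit and MIR130B, with the same seed, just outside the window of the same summit.
miR-301b-3p: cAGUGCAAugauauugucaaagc
miR-130b-3p: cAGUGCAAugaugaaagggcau
MIR423 and MIR3184 overlap on opposite strands and share a seed.
miR-423-5p: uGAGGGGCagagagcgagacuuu
miR-3184-5p: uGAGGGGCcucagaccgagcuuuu
The next ones come from other near genes with strong peaks.
miR-6516-5p: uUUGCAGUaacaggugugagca
miR-6516-3p: aUCAUGUAugauacugcaaaca
miR-3913-3p: aGACAUCAagaucagucccaaa
miR-1292-5p: uGGGAACGgguuccggcagacgcug
miR-718: cUUCCGCCccgccgggcgucg
The relatives away from summits, and the miRNAs of MIR92B, MIR301B, MIR423 and MIR3184, were chosen for display after their values were seen.

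In 5 genes the summit fell inside the hairpin itself, so the hairpin shows the sequence under the summit. The hairpins are given from RefSeq on GRCh38.p14 on the gene's own strand, and the 7 bases centred on the summit are in capitals.
MIR718: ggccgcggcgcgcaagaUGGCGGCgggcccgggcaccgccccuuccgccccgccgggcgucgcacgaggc
MIR1538: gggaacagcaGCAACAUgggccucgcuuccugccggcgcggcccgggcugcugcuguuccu
MIR3175: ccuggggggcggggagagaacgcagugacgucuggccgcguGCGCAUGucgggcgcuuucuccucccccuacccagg
MIR632: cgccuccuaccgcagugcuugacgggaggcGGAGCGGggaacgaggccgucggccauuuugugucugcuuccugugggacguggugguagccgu
MIR658: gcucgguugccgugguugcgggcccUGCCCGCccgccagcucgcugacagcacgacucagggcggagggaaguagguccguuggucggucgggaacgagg
None of these 5 hairpins holds CACGUG, the E-box in RNA letters. Among hairpins with a listed sequence, CACGUG was in 0 of 77 near a summit, against 21 of 1481 not near one (1.42%). At 1.42% few hits would fall among 77 hairpins, so the count of 0 does not show a lower share.

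Few miRNA genes lay near a MYC summit. Of the 1911 miRNA genes, 94 were near one (4.92%, interval 4.04 to 5.98%), against 19.7% of all genes by the same rule applied to the gene span. The share was 4.18% for intragenic miRNA genes (64 of 1531, interval 3.29 to 5.3%) and 7.89% for intergenic ones (30 of 380, interval 5.59 to 11.0%). Of the 30 near intergenic genes, 6 overlapped another gene in part, as did 15 of all 380. Since long genes offer more bases to a summit, other classes were also counted by a summit within 1000 bp of either end of the gene. By that count, miRNA genes (4.92%) were above small nucleolar RNA genes (37 of 1196, 3.09%) with overlapping intervals. They were below small nuclear RNA genes (17 of 154, 11.0%), long noncoding RNA (lncRNA) genes (11.0%), transfer RNA genes (79 of 443, 17.8%) and protein-coding genes (7510 of 19974, 37.6%). Pseudogenes were lowest at 0.388%. All genes other than miRNA genes together gave 17.1%. By the gene span instead, the share was 44.1% for protein-coding, 13.4% for lncRNA and 0.427% for pseudogenes. Since neighbouring miRNA genes share summits, genes up to 10000 bp apart were also joined into 1595 loci, of which 90 (5.64%) held a near gene.

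**Figure D1:**
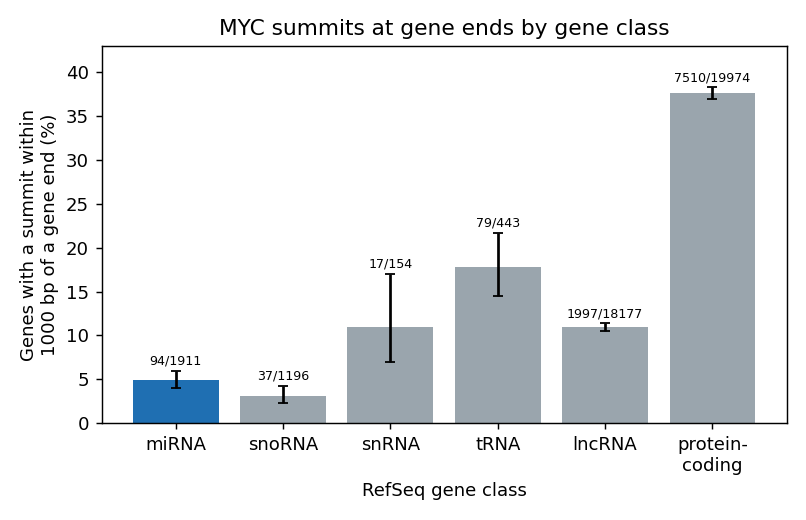
Share of genes (%) with a MYC summit within 1000 bp of a gene end, by RefSeq gene class. Bars show the share, lines the 95% Wilson interval and numbers the genes with a summit over all genes of the class. The miRNA bar (4.92%) stands below every class shown but small nucleolar RNA genes (3.09%).

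The nearest summit was usually far away. The median distance was 59481 bp over all miRNA genes, 52581 bp for intragenic ones and 109528 bp for intergenic ones. Only 18 miRNA genes had a summit within 100 bp. Widening the window to 5000 bp took in 191 intragenic (12.5%) and 51 intergenic genes (13.4%). At 10000 bp the order had turned, with 306 intragenic (20.0%) and 63 intergenic genes (16.6%), and at 50000 bp the share was 49.0% of intragenic and 35.0% of intergenic genes. Just inside the 1000 bp limit were MIR4521 and MIR6789 (948 bp each), MIR3613 (954 bp), MIR193B (955 bp) and MIR4687 (1000 bp). Just outside it were MIR4469 (1021 bp), MIR12115 (1026 bp), MIR548AW (1034 bp), MIR130B (1088 bp) and MIR3939 (1141 bp).

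**Figure D2:**
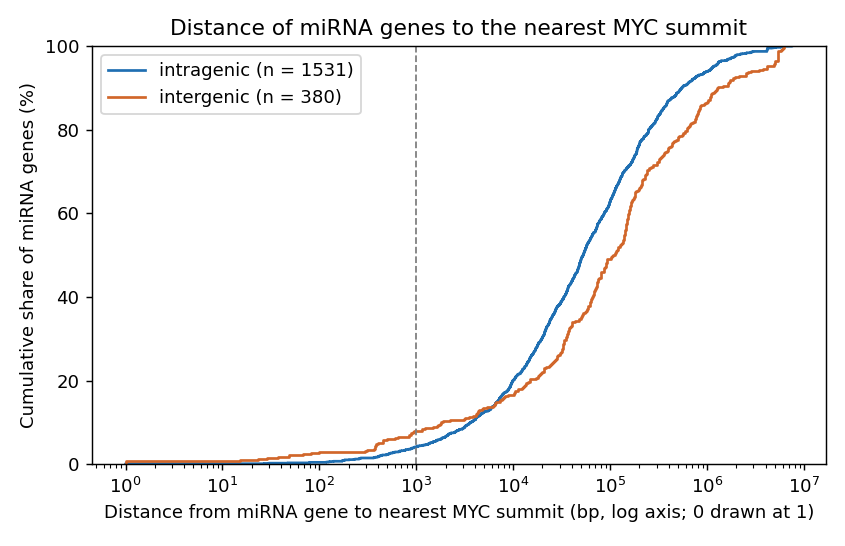
Cumulative share of miRNA genes (%) against the distance from the gene to the nearest MYC summit (bp, log axis, a distance of 0 drawn at 1), for intragenic and intergenic genes. The dashed line marks 1000 bp, where the intergenic curve (7.89%) is above the intragenic one (4.18%), and beyond about 10000 bp the intragenic curve is the higher.

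Near summits went with protein-coding gene ends. Of the 223 miRNA genes within 1000 bp of the end of a protein-coding gene, 66 were near a summit (29.6%, interval 24.0 to 35.9%). The share was 3.78% (13 of 344) at 1001 to 5000 bp from such an end, 1.46% (7 of 481) at 5001 to 20000 bp and 0.927% (8 of 863) farther away. Within 1000 bp of a coding gene end, 42 of 170 intragenic miRNA genes (24.7%, interval 18.8 to 31.7%) and 24 of 53 intergenic ones (45.3%, interval 32.7 to 58.5%) were near a summit. Beyond 20000 bp the shares were 0.927% for intragenic and 0.926% for intergenic genes. An end is the start or the finish of the annotated span, since the gene table used gives no strand. Transcript starts are listed for part of the genes. Of the 188 miRNA genes within 1000 bp of a listed start, 63 were near a summit (33.5%, interval 27.2 to 40.5%).

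**Figure D3:**
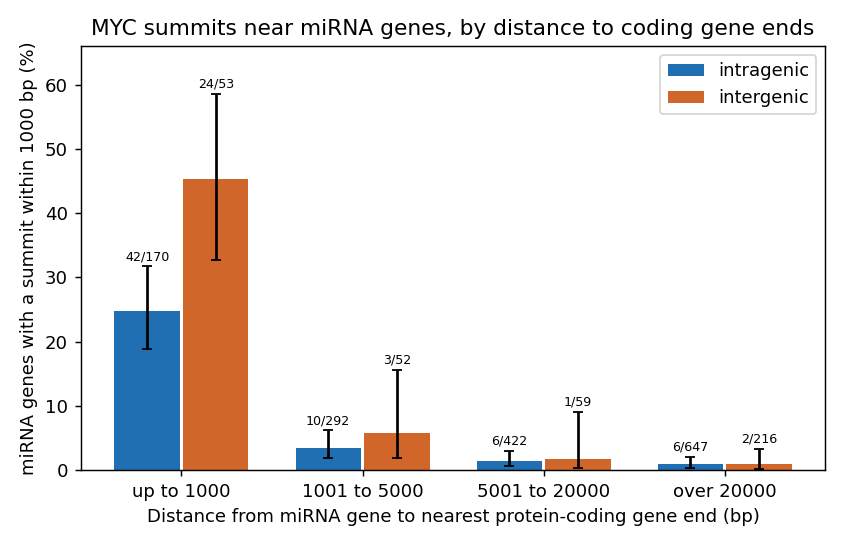
Share of miRNA genes (%) near a MYC summit, by distance from the miRNA gene to the nearest protein-coding gene end (bp), for intragenic and intergenic genes. Bars show the share, lines the 95% Wilson interval and numbers the near genes over all genes. Both classes are highest in the bin up to 1000 bp, at 24.7% for intragenic and 45.3% for intergenic genes.

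The 94 near genes shared 90 distinct peaks, and 4 of these peaks served more than 1 miRNA gene. Of the 90 peaks, 65 (72.2%) had a summit at a protein-coding gene end, against 6322 of the other 9728 peaks (65.0%). The peaks near miRNA genes had a median fold of 9.11 (quartiles 6.3 to 13.6), against 7.77 (5.57 to 11.5) for the other peaks. At coding gene ends the median was 9.27 near miRNA genes and 8.15 for the other peaks, and away from such ends it was 8.65 near miRNA genes and 7.15 for the others. The peaks near miRNA genes had a median width of 908 bp, against 747 bp for the other peaks. At coding gene ends the median widths were 859 and 814 bp, and away from such ends 996 and 614 bp. Per gene, the median fold was 9.27 over the 94 near genes, 8.88 for intragenic and 11.2 for intergenic ones, and 6 genes had a fold of 25 or more. The peak itself covered all or part of the hairpin in 58 genes and stopped short of it in 36. With the strand known for 88 near genes, the summit lay upstream of the hairpin in 59, downstream in 24 and inside it in 5. The near genes had GC-rich hairpins, with a median GC content of 65.6% (n = 77), against 51.1% (n = 1481) for genes not near a summit. Among miRNA genes within 1000 bp of a coding gene end the median was 65.6% for near genes (n = 51) and 60.3% for those not near (n = 139). The part of base composition in the nearness to summits was not tested.

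Of the 15 intragenic miRNA genes with the strongest peaks, 9 lay in protein-coding hosts, 5 in lncRNA hosts and 1 in a transcribed pseudogene. Whether these hairpins lie in exons or introns of their hosts was not analysed here. MIR6516 (chromosome 17, 77089417 to 77089497) lies in SEC14L1, which encodes a lipid-binding protein, and had its summit at 713 bp with a fold of 42.3. This was the highest fold near any miRNA gene, and the summit was 19 bp from the listed SEC14L1 start. The MIR6516 hairpin lay inside 2 genes, of which SEC14L1 was taken as the host. The same summit was 61 bp from the listed start of SNHG20. MIR6850 lies in RPL8, a ribosomal protein gene, with a fold of 36.8 at 365 bp. MIR1292 (chromosome 20, 2652777 to 2652842) lies in NOP56, which encodes a core protein of the box C/D small nucleolar ribonucleoprotein, with a fold of 24.7 at 171 bp. MIR636 lies in SRSF2, a splicing factor gene, with a fold of 19.8 at 172 bp. MIR3652 lies in HSP90B1, a chaperone gene of the endoplasmic reticulum, with a fold of 13.5 at 677 bp. MIR3175 lies in CHD2, which encodes a chromatin remodeller. Its summit was inside the hairpin (fold 13.6) and 4119 bp from the nearest CHD2 end. Also in coding hosts were MIR4519 in BCL7C (15.6), MIR6831 in APBB3 (15.4) and MIR6789 in PLEKHJ1 (13.3). The MIR4519 summit was 18675 bp from the nearest BCL7C end and 58 bp from the listed start of MIR762HG.

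MIRLET7I (chromosome 12, 62603686 to 62603769) lies in MIRLET7IHG. Its summit, 907 bp away, had a fold of 26.8 and was 36 bp from the listed start of MIRLET7IHG. The peak covered the whole hairpin. The other lncRNA hosts with strong peaks were MIR1915HG for MIR1915 (22.3), MIR762HG for MIR762 (18.9) and DANCR for MIR4449 (17.7). The MIR762 summit was 273 bp from the listed start of BCL7C, and the summit nearest to a MIR762HG end was another, of fold 15.6. MIR92B, in THBS3-AS1, had a fold of 15.2 at 657 bp. MIR301B, in a transcribed pseudogene, had a fold of 12.7 at 765 bp, and the neighbouring MIR130B took the same summit at 1088 bp. The summit was 35 bp from an end of that pseudogene.

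Of the 10 intergenic miRNA genes with the strongest peaks, 8 had their summit within 1000 bp of a coding gene end. MIR3913-1 and MIR3913-2 (chromosome 12, 69584722 to 69584823 and 69584723 to 69584822) lie on opposite strands and shared a summit of fold 33.2, at 834 and 835 bp. That summit was 198 bp from the listed start of CCT2, a gene of the cytosolic chaperonin. MIR4470, beside ASPH, had a fold of 24.8 at 67 bp. MIR718 (chromosome X, 154019920 to 154019989) had its summit inside the hairpin, with a fold of 23.5. That summit was 67 bp from the listed start of IRAK1, a kinase gene of innate immune signalling. MIR320A, beside the RNA polymerase III subunit gene POLR3D, had a fold of 21.9. MIR1538, beside the osmotic stress factor NFAT5, had 17.3, and MIR4738, beside UNK, had 15.3. MIR132 and MIR212 (chromosome 17, 2049908 to 2050008 and 2050271 to 2050380) shared a peak of fold 23.5 that covered both hairpins, with its summit at 453 and 81 bp, and the nearest coding gene end, of HIC1, was 4642 bp from that summit. The nearest listed transcript start, that of the lncRNA gene LOC124903896, lies within MIR132 and was 512 bp from the summit.

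The other 49 intragenic near genes had folds of 3.17 to 12.2 and the other 20 intergenic ones folds of 3.08 to 14.9. MIR632, whose hairpin overlaps the listed start of the zinc finger gene ZNF207, had a fold of 12.3, with the summit inside the hairpin. MIR658, in ANKRD54, also held its summit and had a fold of 6.64. MIR4444-1, which overlaps the start of the RNA-binding protein gene HNRNPA3, had 11.7 at 312 bp. MIR611, in TMEM258 and beside the flap endonuclease gene FEN1, had 10.3 at 402 bp. MIR423 and MIR3184 lie in NSRP1, a splicing regulator gene, and shared a peak of fold 9.27 at 261 and 268 bp. The summit of that peak was 2 bp from the listed NSRP1 start. MIR4522, beside WSB1, had 7.13 at 29 bp, and MIR193B, in its own host MIR193BHG, had 8.25 with the nearest end of that host 1631 bp from any summit. Of these, MIR632, MIR4444-1 and MIR611 were above the median of 9.27 for near genes.

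**Figure D4:**
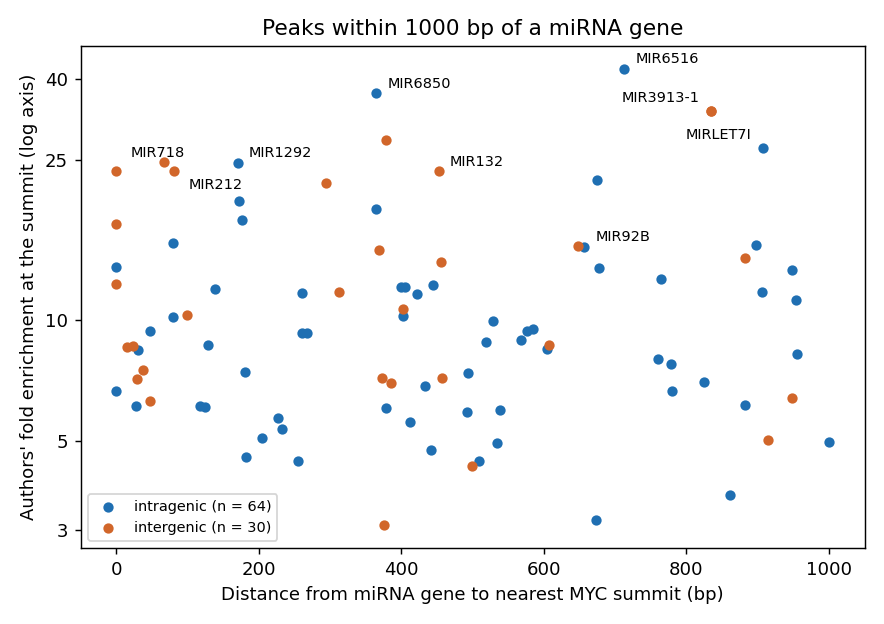
The authors' fold enrichment at the nearest summit (log axis) against the distance from the miRNA gene to that summit (bp), for the 64 intragenic and 30 intergenic near miRNA genes, each a point. MIR6516 is highest at 42.3, and MIR3913-1 and MIR3913-2 fall on nearly the same point at 33.2.

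Binding was far more frequent at the ends of host genes than near the hairpins. Of 1531 intragenic miRNA genes, 522 (34.1%, interval 31.8 to 36.5%) had a host with a summit within 1000 bp of either end. Of these 522, 50 were themselves near a summit (9.58%), against 14 of the 1009 whose host end was not bound (1.39%). For 43 of the 64 near intragenic genes the nearest summit was that of the host end. The other 472 genes with a bound host were a median of 19241 bp from a summit. Counted once each, 428 of 1012 protein-coding hosts were bound at an end (42.3%), against 37.6% of all protein-coding genes, and 26 of 186 lncRNA hosts (14.0%), against 11.0% of all lncRNA genes. The near share was 4.23% for miRNA genes in coding hosts (50 of 1181) and 4.29% for those in lncRNA hosts (13 of 303).

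The 4 promoter sequences below, from RefSeq on GRCh38.p14, are the 250 bases before the transcript start at peaks near a miRNA gene. They show an E-box, in capitals as CACGTG, in 3 of them and none in the promoter of the let-7i host gene, and they were chosen for display after the motif search. The WSB1 stretch (chr17:27293864-27294113, plus strand) contains the whole MIR4522 hairpin, and its E-box starts 58 bases before the start. The FEN1 stretch (chr11:61792661-61792910, plus strand) lies beside MIR611, with the E-box at 30 bases. The HNRNPA3 stretch (chr2:177212544-177212793, plus strand) overlaps MIR4444-1, with the E-box at 71 bases. The MIRLET7IHG stretch is chr12:62602493-62602742, plus strand.
WSB1: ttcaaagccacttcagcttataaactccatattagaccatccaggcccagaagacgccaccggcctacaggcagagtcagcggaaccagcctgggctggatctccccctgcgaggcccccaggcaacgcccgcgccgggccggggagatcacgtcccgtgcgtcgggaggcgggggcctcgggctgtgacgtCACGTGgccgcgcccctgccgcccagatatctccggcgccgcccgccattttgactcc
FEN1: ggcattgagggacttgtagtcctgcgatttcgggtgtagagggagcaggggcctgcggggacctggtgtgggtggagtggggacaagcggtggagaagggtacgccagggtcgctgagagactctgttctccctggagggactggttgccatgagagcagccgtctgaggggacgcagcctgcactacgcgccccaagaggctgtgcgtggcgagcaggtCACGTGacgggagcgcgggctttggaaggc
HNRNPA3: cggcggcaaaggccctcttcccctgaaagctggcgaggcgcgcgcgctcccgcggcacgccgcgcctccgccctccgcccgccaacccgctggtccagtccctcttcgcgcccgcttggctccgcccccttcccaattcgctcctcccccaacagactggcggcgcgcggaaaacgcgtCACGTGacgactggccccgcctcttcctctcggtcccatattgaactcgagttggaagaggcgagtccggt
MIRLET7IHG: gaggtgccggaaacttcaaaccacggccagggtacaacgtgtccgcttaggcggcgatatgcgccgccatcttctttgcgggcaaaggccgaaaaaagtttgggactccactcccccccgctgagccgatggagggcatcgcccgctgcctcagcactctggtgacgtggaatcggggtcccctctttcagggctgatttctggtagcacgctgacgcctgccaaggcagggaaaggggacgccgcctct
Motifs were searched on both strands in the 250 bases before and the 50 bases after each listed start. CACGTG was in 19 of 111 promoters at peaks near miRNA genes (17.1%), against 11.7% of other promoters with a summit within 1000 bp, 5.46% of promoters without one and 7.27% of all promoters. CACGCG was in 21.6%, against 21.3%, 7.45% and 11.4% in the same groups. CATGTG was in 2.7%, against 5.66%, 13.3% and 11.1%. A promoter can hold more than 1 of these motifs, and the 111 promoters belong to 89 genes. Promoters of alternative starts and of neighbouring genes can overlap, so 1 E-box can be counted in more than 1 promoter. For example, SLC35A4 and LOC131768270 have the same stretch, and HOXD1 and HAGLR hold the same E-box. The 19 promoters are therefore not independent, and the difference from other promoters was not tested.

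Of 121 miRNA genes in the 11 lists of miRNAs with a shared role, 4 were near a summit (3.31%), beside 4.92% of all miRNA genes. These were MIRLET7I, MIR132, MIR212 and MIR2861. Among the 105 listed genes that are intragenic, 30 had a host end with a summit (28.6%), beside 34.1% of all intragenic miRNA genes.

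The miR-17-92 family, growth-linked clusters that MYC is known to activate, had 0 of 15 genes within the window. The 6 genes of the miR-17 cluster lay 1551 to 2260 bp from a summit of fold 25.9. MIR17 and MIR18A were the closest, at 1551 and 1697 bp. This summit was inside the host gene MIR17HG, 1367 bp from its listed start, so the host end was not counted as bound either. The peak, 2677 bp wide, did cover that start. The body of this peak ended within 1000 bp of MIR17, so MIR17 was near when any base of the peak counted. MIR25, MIR93 and MIR106B lie in MCM7, which encodes a subunit of the replicative helicase. They were 4667, 4875 and 5100 bp from a summit of fold 12.6, while the MCM7 end had a summit of fold 37.4. The 6 genes of the X-linked cluster were 290059 bp or more from a summit.

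In the let-7 family, whose members restrain growth and MYC itself, 1 of 12 genes, MIRLET7I, was near a summit. The hosts of 5 of the 12 had a bound end. The end of MIRLET7A1HG, which holds MIRLET7A1, MIRLET7F1 and MIRLET7D, had a fold of 44.0, the highest among the listed host genes, and those hairpins were 9388, 9778 and 12265 bp away. MIRLET7G lies in WDR82, with an end fold of 8.64. Outside the window, the members nearest to a summit were MIRLET7B at 8863 bp and MIRLET7A1. Other miRNAs known to be repressed by MYC had 0 of 24 genes near a summit, and 8 of them had a bound host end. MIR26B in CTDSP1 was the nearest at 3928 bp, then MIR150 at 4706 bp. The bound host ends included NFYC (16.6), which holds MIR30E and MIR30C1, MIR34AHG (8.36), DLEU2 (7.48), which holds MIR15A and MIR16-1, and ZFAT (7.03).

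The p53-responsive list had 0 of 10 genes near a summit, with MIR192 and MIR194-2 nearest at 12106 and 12324 bp. Growth-linked oncomiRs had 0 of 9. MIR21 was the nearest at 11910 bp although the end of its host VMP1 had a fold of 21.9, and MIR10B followed at 13470 bp. Of the bone and cartilage list, drawn up for an osteosarcoma line, 1 of 14 was near: MIR2861, which with its neighbour MIR3960 shared a summit of fold 7.19 beside CDK9, a kinase gene of transcription elongation. The next ones were MIR135A1 at 6432 bp and MIR133A2 at 38857 bp. The epithelial miR-200 and miR-205 list had 0 of 6 (MIR141 at 6494 bp, MIR200C at 6919 bp) and no bound host end.

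The hypoxia and metabolism list had 0 of 8 near a summit but 6 hosts with a bound end. These hosts were PPARGC1B, PANK1, PANK2, PANK3, SREBF1 and SREBF2, genes of mitochondrial, coenzyme A and sterol metabolism. Their end folds ran from 6.02 at PPARGC1B to 14.5 at SREBF1, and MIR378A in PPARGC1B was nearest to a summit at 1495 bp, then MIR103A1 at 18117 bp. The HOX cluster list had 0 of 6 (MIR196B at 3484 bp, MIR196A1 at 7093 bp). Of the neural list, 2 of 15 were near, MIR132 and MIR212, and the next were MIR9-2 at 6108 bp and MIR7-2 at 9432 bp. The PVT1 locus, a lncRNA gene that neighbours MYC, had 0 of 5, although the PVT1 end had a fold of 22.7. MIR1204 was nearest at 1378 bp from the summit, and the peak at the PVT1 end covered its whole hairpin. MIR1208 followed at 26755 bp.

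**Figure D5:**
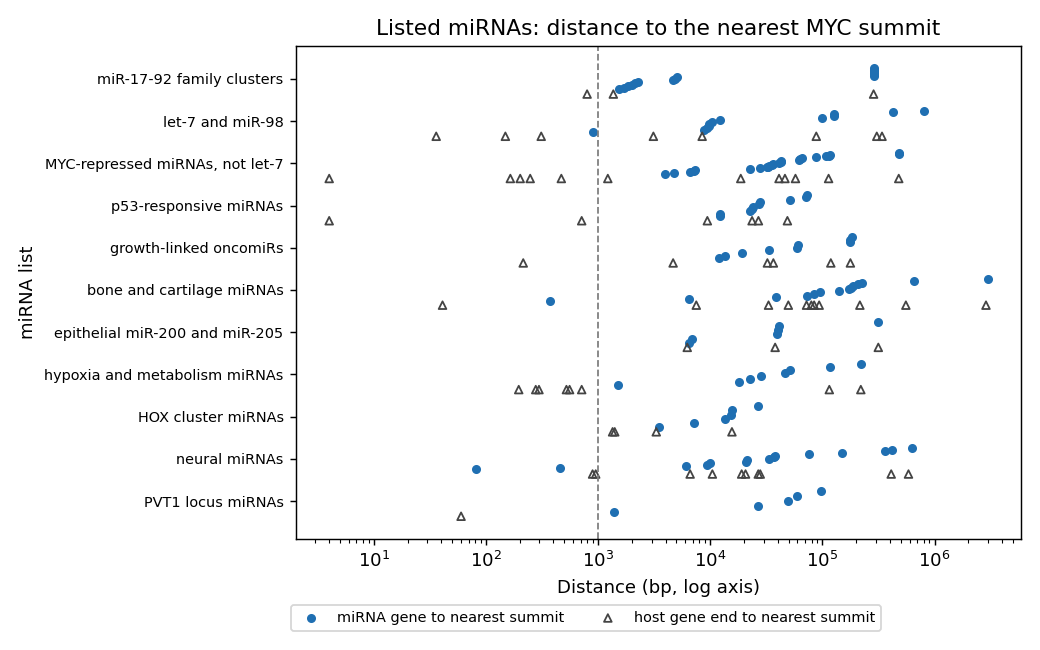
Distance (bp, log axis) from each listed miRNA gene, as filled points, and from the closer end of its host gene, as open triangles, to the nearest MYC summit, by list. The dashed line marks 1000 bp, and 4 miRNA genes lie left of it, while host ends do so in 9 of the lists.

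Of the 40 loci with 3 or more genes (241 genes, the largest locus with 46), 0 had a near gene, and a count of 0, taken as allowing 3 counts, allows a share of up to 7.5%. In 3 of them a member lay within 5000 bp of a summit, and in 11 within 10000 bp. The count of 0 rests on the summit, since with any base of the peak counted the miR-17 locus held a near gene, MIR17. Of the 115 loci of 2 genes, 12 had a near gene, and of 1440 single genes 78 had one. Among seeds, 109 distinct ones were carried by the 85 near genes with a listed mature sequence. Of these, 80 (73.4%) belonged to 1 gene, beside 80.1% of all 1914 seeds. Only 5 seeds were shared by near genes, and they belonged to 5 pairs.

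The genes of the miRNA pathway were bound at their ends far more often than the hairpins. Of 25 listed biogenesis genes, 18 had an end summit (72.0%), beside 37.6% of all protein-coding genes. Their median fold was 14.97, beside 8.25 for all protein-coding genes with an end summit. Of the nuclear cutting machinery, DROSHA had a fold of 6.74, its partner DGCR8 21.7 and the helicases DDX5 and DDX17 14.5 and 11.0. SRRT, which links capped transcripts to processing, had 10.1, the RNA-binding protein HNRNPA1 36.7 and the editing enzyme ADAR 21.8. Of nuclear export, XPO5 had 16.7 and the GTPase RAN, which XPO5 needs, 77.5, the highest of the list. Of the cytoplasmic step, DICER1 had 43.1, and its partners PRKRA and TARBP2 17.0 and 6.84. Among Argonaute genes, AGO1 had 21.5 and AGO3 13.0, while AGO4 (11912 bp) and AGO2 (7221 bp) had no end summit. For AGO2 that summit lay inside the gene, with a fold of 7.88. The uridylating enzymes TUT4 and TUT7 had 14.99 and 7.52, and the exonuclease DIS3L2 14.96. Of the TNRC6 silencing partners, TNRC6C had 5.96, while TNRC6B (10971 bp) and TNRC6A (70410 bp) had no end summit. The span of TNRC6A did hold a summit, farther from its ends. KHSRP (19915 bp), which binds let-7 precursors, had no end summit, and nor had LIN28A (2399 bp) or LIN28B (20688 bp), which block their maturation. The summit at that distance from the LIN28B end lay inside LIN28B, with a fold of 18.5. Of 49 listed lncRNA host genes of miRNAs, 6 had an end summit (12.2%), beside 11.0% of all lncRNA genes. Of the 47 that are named for a miRNA, which leaves out PVT1 and DLEU2, 4 had one (8.51%). The 6 were MIRLET7A1HG (44.0), PVT1 (22.7), MIR762HG (15.6), MIR3936HG (11.5), MIR34AHG (8.36) and DLEU2 (7.48). Hosts with a summit inside the gene but none within 1000 bp of an end were MIR17HG, MIR1915HG, MIR193BHG, MIR9-2HG and MIR3681HG.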

How the data were processed

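MYC binding was measured by ChIP-Rx, chromatin immunoprecipitation with mouse chromatin added as a reference, in 2 immunoprecipitated and 1 input library. Cells were fixed for 10 min and chromatin was sheared to 200 to 500 bp, per the labels' protocols. Per the submitters' processing notes, the tools were MACS2, Picard, SAMtools, Bowtie2 and cutadapt, with builds hg38, hg19 and mm10, none with a version or role. The deposited list is on hg38, by its name. The authors deposited a linear fold enrichment (a ratio of immunoprecipitate to control) and a −log10 q-value for each summit. The use of mouse reads in scaling is not given in the sources used here, nor is any pooling of libraries.

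Each miRNA gene on chromosomes 1 to 22 and X was given its nearest summit, and the fold and −log10 q-value of that peak. The host was chosen by the same strand where known, then a protein-coding class, then the shortest span. Gene spans, hairpins, mature miRNAs and promoters are from RefSeq (GRCh38.p14). Hairpins were listed for 1558 and strand for 1772 of the 1911 miRNA genes. No test was run, since 1 list gives no replicates. Shares and medians were computed with Python 3.11.15, pandas 2.3.3, numpy 2.4.6 and scipy 1.17.1, with scripts tested on simulated data, and drawn with matplotlib 3.10.9. Named were the 15 intragenic and 10 intergenic near genes of highest fold, near members of lists, the 5 genes on each side of 1000 bp, the 2 nearest other members of each list and all biogenesis genes; 1 of the intergenic genes is not reported here. MIR423, MIR3184, MIR611, MIR632, MIR658, MIR3960, MIR4444-1 and MIR4522, and list members beyond these, were named after their values were seen. The miRNA genes and lists were chosen with earlier results of these data known. Alternatives were windows of 500 and 5000 bp, stricter peak sets, the peak body in place of the summit, other locus gaps and other choices of host.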

Additional observations from a re-analysis of the deposited data

How the results depend on the processing

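Of 39 alternatives, 17 stayed within the interval of the value reported and 22 moved beyond it, in part by construction, since they admit more or fewer summits. The share of all miRNA genes near a summit was 3.09% with a window of 500 bp, 12.7% with 5000 bp, 2.88% with the 50% of peaks that had the higher −log10 q-value and 6.12% when any base of the peak counted. For intragenic genes these shares were 2.35%, 12.5%, 2.35% and 5.42%. For intergenic genes the share was 13.4% with 5000 bp, 5.0% with the stronger 50% of peaks and 5.46% when only hosts on the same strand counted. In that last setting, the 187 genes with a host on the opposite strand and the 330 of unknown host strand counted as intergenic. For loci the shares were 3.51%, 13.8%, 3.26% and 6.9% in the order given for all genes. The median fold was 12.7 with the stronger 50% of peaks. The share of intragenic genes with a bound host end was 29.0% with 500 bp, 41.0% with 5000 bp, 20.6% with the stronger 50% of peaks, 36.6% with any base of the peak, 41.1% with protein-coding hosts only and 38.3% with hosts on the same strand only. Under each of these settings the intergenic share was the higher of the pair, but at 10000 bp the intragenic share was. The intervals of intragenic and intergenic genes overlapped at 5000 bp, with the stronger 50% of peaks and with any base of the peak. They also overlapped with protein-coding hosts only and with same-strand hosts only. No paired analysis was possible because the values come from 1 peak list of the series, and leaving out a replicate was not possible for the same reason. Depth is unknown, so the peaks that were missed cannot be counted. Whether host and miRNA share a strand was unknown for 330 intragenic genes, the promoter table is incomplete, and gene ends stand in for promoters.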

Other observations

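By chromosome, the near genes were spread over all but 2 of the 23 chromosomes. Chromosome 17 held 12 near genes of 110 (10.91%), the most of any chromosome in number and share, and they include MIR6516, MIR132, MIR212, MIR636, MIR423 and MIR4522. Chromosomes 6 (71 miRNA genes) and 21 (29 miRNA genes) held none. Chromosome X held 2 of 118 (1.69%), MIR718 and MIR4767. The share of all genes near a summit was not counted by chromosome, so these shares cannot be read as particular to miRNA genes. Summits upstream of the hairpin outnumbered those downstream in both classes. Of intragenic near genes with a strand, 41 had the summit upstream, 17 downstream and 2 inside. Of intergenic ones, 18 had it upstream, 7 downstream and 3 inside.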
